A study of Mus musculus with 12 samples.

Results

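Cultures of cerebellar granule cells that received β4a, a splice form of the β4 subunit of calcium channels, were compared with cultures that received β4e. The comparison uses 6 of the 12 arrays of the study, the 3 titled β4a and the 3 titled β4e, taken in pairs by the replicate number in their titles and described across all genes. By the labels of each sample, all cells came from lethargic mice of the 129/SvJ background, at postnatal day 7; the culture protocol, shared by all samples, also names BALB/c mice. They were exposed for 12 hours, directly after plating, to a lentivirus carrying the variant, received Ara-C, an antimitotic drug, 24 hours after plating, and gave RNA after 9 days in vitro. The other 6 arrays were cultures given β4b or eGFP, 3 of each, and serve here only to estimate the spread and as points of reference. The lethargic mutation lies in Cacnb4, the gene of β4 itself, and every group carried it by its labels, so that β4a and β4e were each added to cells with the same mutant gene. The promoter that drove the variants and the share of cells transduced are not given in the sources used here, nor whether replicates came from separate litters or cultures. The p-values therefore measure the spread between these samples, which may be technical.

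The β subunits bind the pore-forming α1 subunit of high-voltage-activated calcium channels, carry it to the membrane and tune its gating. The splice variants of β4 differ mainly in the stretch at the amino terminus, and some forms of β4 also enter the nucleus. In granule cells, calcium entry through channels and NMDA receptors switches on immediate early genes, transcription factors such as Fos and Npas4 that are transcribed within minutes and then drive later genes such as Bdnf. The same signal runs through the ERK pathway, which induces its own brakes, the dual-specificity phosphatases and Sprouty proteins.

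Each value is a log2 GCRMA intensity of 1 probe set, and a difference is β4a minus β4e on that scale. A probe set was tested if it stood above 4, a level near background, in at least 3 of the 12 arrays. No probe set passed. By limma with the replicate number as a block, 0 of 23044 probe sets reached an adjusted p of 0.05 (0% called, smallest adjusted p = 0.759), and 1458 (6.33%) had an unadjusted p below 0.05. Of these 830 (3.6% of all) stood higher with β4a and 628 (2.73%) lower, a split that turned to 752 higher and 776 lower after quantile normalization. A share of 5% is what probe sets without a difference would give. Without the block 0 passed as well, and 153 (0.664%) lay at an unadjusted p under 0.05. Hence no gene below is called changed, and values are given as measured. Against these shares, 619 probe sets (2.69%) lay at an unadjusted p under 0.05 between β4a and β4b and 1638 (7.11%) between β4b and β4e, with 0 past the adjusted threshold in either.

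**Figure D1:**
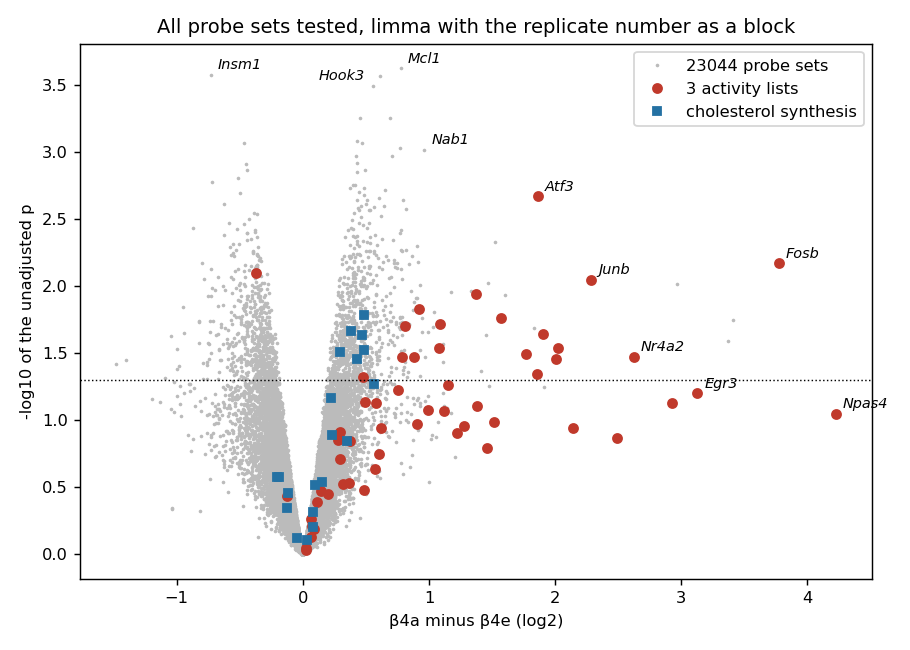
Difference between β4a and β4e (horizontal axis, log2) and −log10 of limma's unadjusted p (vertical axis) for the 23044 probe sets, with 1 probe set per gene marked for the 3 activity lists (red circles) and cholesterol synthesis (blue squares). The dotted line is an unadjusted p of 0.05. The widest differences, on the right, belong to activity-induced genes such as Npas4 and Fosb, and none passed after adjustment.

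The cultures held granule cells by their markers. Gabra6, which encodes a GABA receptor subunit that marks their mature state, had values of 13.93, 13.90 and 13.58 with β4a and 14.02, 13.89 and 13.64 with β4e in replicates 1, 2 and 3, and Zic1 and Neurod1, both granule cell transcription factors, stood above 14 in all 6 arrays. Of the 27 granule cell identity genes tested, 9 stood higher and 18 lower on average with β4a (median -0.07), against 5324 and 5659 of 10983 genes. In replicate 1, 10 stood higher, 0 of them by at least 1, and 17 lower. Of these 17, 4 were at least 1 lower, down to -1.36, against 195 of the 10983 genes. In replicates 2 and 3, 0 of the 27 were at least 1 lower. Cacnb4 stood at 12.04, 11.96 and 12.10 with β4a and at 11.91, 11.87 and 12.15 with β4e on its brightest probe set, a difference of 0.05 (SE 0.08). The eGFP cultures, which received no β4, were as bright at 12.03, 12.01 and 12.24. Where the 3 Cacnb4 probe sets lie relative to the mutation and to the delivered sequence is not known here, so that these values check neither the labels nor the delivery.

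Of the genes in the 3 lists of activity-induced transcripts, 54 of 56 stood higher on average with β4a, and most of that distance came from replicate 1. Over the 20 immediate early transcription factors tested (of 21 on the array), 20 stood higher, with a median difference of 1.88, against 5324 of 10983 genes (48.5%) and a median of -0.01 over all genes tested. Of these 20, 7 (35%) had an unadjusted p under 0.05, against 533 of the 10983 genes (4.85%). By replicate number the median was 3.94 in replicate 1, 1.43 in replicate 2 and 0.01 in replicate 3. In replicate 1 the difference was at least 1 for 18 of the 20, in replicate 2 for 11, and in replicate 3 for 0, where 10 were higher and 10 lower. Without replicate 1 the median over the list was 0.72, and without replicate 3 it was 2.68. The immediate early list thus stood far apart in 1 pair, moderately apart in another and near 0 in the third.

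Npas4, a neuron-specific factor that responds to calcium entry, stood at 13.77, 13.55 and 6.98 with β4a and at 3.20, 11.90 and 6.52 with β4e. The β4e array of replicate 1 was near background, while the other 5 arrays lay well above it, and the groups overlapped. The mean difference was 4.23 (SE 2.23), but the 3.20 is below 4, so that it is not exact. In replicate 1 Npas4 was as low with eGFP (3.02) and as high with β4b (12.89), so that β4a and β4b stood on one side and β4e and eGFP on the other. Fos, the founding member of the AP-1 family, showed the same split in replicate 1: 14.15 with β4a, 14.17 with β4b, 8.52 with β4e and 8.62 with eGFP. In replicate 2 Fos stood at 14.49 with β4a and 13.62 with β4e, and in replicate 3 at 11.22 and 11.31. The eGFP array of replicate 3 was above both variants, at 9.11 for Npas4 and 12.09 for Fos. The orphan nuclear receptor Nr4a1 behaved likewise, at 11.94, 12.04 and 6.08 with β4a against 4.57, 10.12 and 6.59 with β4e.

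In replicates 1 and 2, Fosb and Atf3 separated β4a from β4b too. Fosb, a longer-lived partner in AP-1, stood at 10.14, 8.24 and 3.64 with β4a and at 2.90, 4.50 and 3.29 with β4e. Replicates 1 and 2 with β4a were clearly above every β4e array, whereas replicate 3 was near background in both groups and the groups overlapped. The difference was 3.77 (SE 1.09; limma adjusted p = 0.759), which is not exact either, since 2 of the β4e values and 1 of the β4a values are below 4. With β4b it stood at 5.54, 5.46 and 3.25. Atf3, a stress- and calcium-induced repressor, stood at 8.12, 7.73 and 5.23 with β4a against 5.14, 5.57 and 4.78 with β4e, higher in 3 of 3 pairs, with a difference of 1.86 (SE 0.45; limma adjusted p = 0.759). Only its β4a array of replicate 3 fell within the range of β4e. Without that array Atf3 differed by 2.58 and passed, the 1 probe set to do so (limma adjusted p = 0.0356). Over the other alternatives tried its limma adjusted p ran from 0.370 to 0.9999. With β4b Atf3 stood at 5.58, 6.12 and 5.03. Junb, the AP-1 member that restrains Jun, stood at 7.78, 9.56 and 5.19 against 4.79, 5.76 and 5.13, a difference of 2.28 (SE 0.70). Its distance was widest in replicate 2, unlike that of most of the list. With β4b Junb stood at 7.17, 6.74 and 5.13, nearer to β4a than to β4e in replicate 1 and the reverse in replicate 2.

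Further members of the list also stood higher on average with β4a. Nr4a2 stood at 13.60, 12.75 and 8.77 with β4a and at 8.32, 9.59 and 9.34 with β4e, with the order turned in replicate 3. Egr3, which acts in muscle spindle and synaptic gene control, differed by 8.96 in replicate 1 and by 0.59 and -0.17 in the others. Its eGFP array of replicate 1 (9.43) was not as low as β4e (4.69). Egr4 was 1 of 2 genes of the activity lists whose groups did not overlap (1.57% of all probe sets did so in this direction): 5.54, 5.06 and 3.47 with β4a against 3.08, 3.46 and 3.42 with β4e. Its lowest β4a and highest β4e values were practically equal, and the β4e values lay below 4. Jun and Crem, the latter a repressor of CRE-driven transcription, were among the least different, at 0.57 and 0.30.

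**Figure D2:**
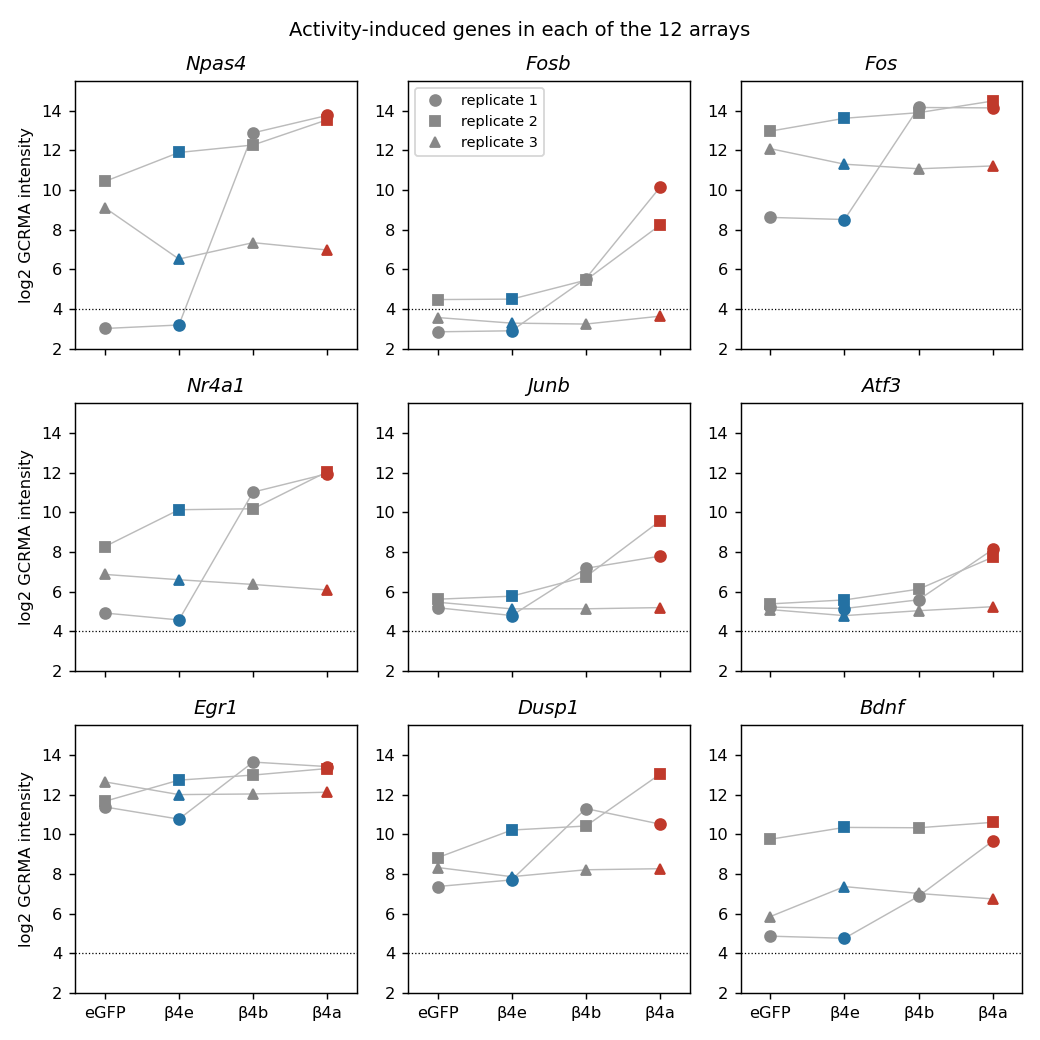
Log2 GCRMA intensity (vertical axis) of 9 activity-induced genes in all 12 arrays, by group (horizontal axis), with 1 symbol per replicate number and a grey line joining arrays of 1 number. The dotted line at 4 marks the level used as the filter. In replicate 1 the β4a array stood far above β4e and eGFP for all 9 genes, and in replicate 3 the groups lay close together for most of them.

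The activity-induced effectors and the brakes on ERK signalling showed the same order of replicates with smaller distances. Of 19 effectors tested, 17 stood higher with β4a (median 0.61; 1.26, 0.13 and -0.04 in replicates 1, 2 and 3), and of 17 ERK and MAP kinase feedback regulators all 17 (median 0.48; 1.45, 0.14 and -0.01). Unadjusted p lay under 0.05 for 5 of the effectors that were higher, for Pim1, which was lower, and for 6 of the feedback regulators (31.6% and 35.3% of the lists, against 4.85% of all genes). Without replicate 1 the medians were -0.02 and 0.08. Bdnf, the neurotrophin that activity releases, stood at 9.66, 10.60 and 6.74 with β4a and at 4.75, 10.35 and 7.36 with β4e. Its β4a arrays were higher in replicates 1 and 2 and lower in replicate 3, and leaving out replicate 1 turned its sign (-0.18).

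Btg2, an antiproliferative gene induced by growth factors and activity, stood at 6.78, 9.02 and 6.56 with β4a and at 4.85, 6.48 and 6.30 with β4e, again without overlap, with a difference of 1.57 (SE 0.55). Scg2, a secretory granule protein, stood at 10.77, 10.35 and 9.49 against 9.11, 9.66 and 9.40, higher in 3 of 3 pairs. Arc, which acts in removing AMPA receptors from synapses, differed by 1.48, 1.83 and -0.04. Its β4e value of replicate 1 (3.33) and its β4a and β4e values of replicate 3 (3.74 and 3.78) were below 4. Dusp1, a phosphatase that inactivates MAP kinases in the nucleus, stood at 10.51, 13.03 and 8.26 against 7.70, 10.21 and 7.86. It was higher in 3 of 3 pairs and as far apart in replicate 2 as in replicate 1. Dusp6, which acts on ERK in the cytoplasm, differed by 1.86, 0.37 and 0.54, and Dusp4, its nuclear counterpart, by 4.42, 0.81 and 0.07. Pim1, a survival kinase, was 1 of the 2 effectors that stood lower with β4a (-0.37, SE 0.11), in all 3 pairs, at values between 3.80 and 4.65.

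**Figure D3:**
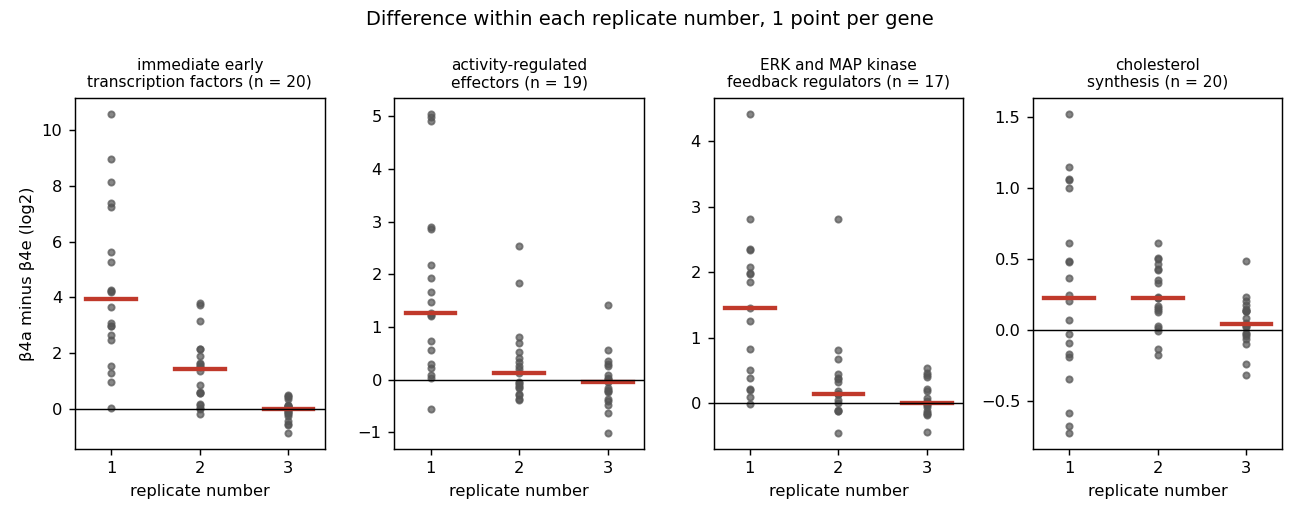
Difference between β4a and β4e (vertical axis, log2) within each replicate number (horizontal axis) for the genes of 4 lists, with 1 point per gene and the median as a red bar. The vertical scales differ between panels. The immediate early medians were 3.94, 1.43 and 0.01, and those of cholesterol synthesis 0.22, 0.22 and 0.04.

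RNA quality readings differed between the arrays too. In the first pair, the 3′ minus 5′ difference of the Gapdh control probe sets was 0.219 with β4a and 0.0939 with β4b, against 0.403 with β4e and 0.395 with eGFP. In replicate 2 it was 0.0818 with β4a and 0.0503 with β4e, and in replicate 3 -0.0527 and 0.00459. That of Actb was higher with β4e in all 3 pairs, at 0.937, 0.933 and 0.852 with β4a against 1.09, 1.02 and 0.959 with β4e. In replicate 1 it was 0.964 with eGFP and 0.82 with β4b. The 2 arrays of replicate 1 with low immediate early genes were thus those with the highest Gapdh reading, and the part of either reading in the difference was not tested. In these bulk samples, fewer active cells and less transcript per cell cannot be told apart.

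Of the immediate early list, Atf3, Fosb and Junb led by limma's t with 1 sign in all 3 pairs, and Npas4 had the widest mean difference. The upstream sequences of these 4 genes, a choice that rests on their values, are shown because the members of the list stood apart together. They are the 250 bases before the start of transcription in RefSeq (GRCm38.p6), each on the minus strand, of Fosb (chr7:19310046-19310295), Junb (chr8:84978749-84978998), Npas4 (chr19:4989972-4990221) and Atf3 (chr1:191183334-191183583). Capitals mark TGACG, the core of the cAMP response element (CRE), read on both strands (CGTCA on the other one), to which factors of the CREB family bind, and in Fosb also the Egr motif GCGNGGGCG.
Fosb: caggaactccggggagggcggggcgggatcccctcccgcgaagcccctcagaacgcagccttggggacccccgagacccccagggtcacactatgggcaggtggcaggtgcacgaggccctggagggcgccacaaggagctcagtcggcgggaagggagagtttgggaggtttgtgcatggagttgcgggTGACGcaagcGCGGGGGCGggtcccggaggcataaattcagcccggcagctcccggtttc
Junb: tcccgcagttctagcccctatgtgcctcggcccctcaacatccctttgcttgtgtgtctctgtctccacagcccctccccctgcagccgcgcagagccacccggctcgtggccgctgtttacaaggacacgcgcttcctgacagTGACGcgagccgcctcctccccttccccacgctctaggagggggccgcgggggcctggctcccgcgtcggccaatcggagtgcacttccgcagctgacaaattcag
Npas4: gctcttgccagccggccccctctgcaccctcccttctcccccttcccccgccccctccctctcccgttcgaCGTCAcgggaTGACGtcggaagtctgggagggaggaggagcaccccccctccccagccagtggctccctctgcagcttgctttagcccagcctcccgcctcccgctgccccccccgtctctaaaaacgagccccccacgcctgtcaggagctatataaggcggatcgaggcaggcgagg
Atf3: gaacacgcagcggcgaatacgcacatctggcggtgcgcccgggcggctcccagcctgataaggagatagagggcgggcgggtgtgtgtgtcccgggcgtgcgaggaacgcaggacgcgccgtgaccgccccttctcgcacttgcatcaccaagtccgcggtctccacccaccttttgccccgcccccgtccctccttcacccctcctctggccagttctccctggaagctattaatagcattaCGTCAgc
Each of the 4 held the CRE core, and Npas4 held it in both orientations. In windows of 300 bases that run 50 bases past the start, 13 of the 15 immediate early genes with a RefSeq window held the CRE core (86.7%), against 3260 of 8916 genes tested here (36.6%) and 6228 of all 27025 genes (23%). It was found in 8 of 14 effectors, 7 of 15 feedback regulators and 8 of 16 cholesterol genes. Among the genes of smallest p named below, it was in 9 of 10 higher with β4a and 4 of 6 lower. The core was thus not particular to the immediate early list or to 1 direction. The full CRE, TGACGTCA, which contains that core, was in 1 of the 15 (6.67%, against 3.69% of genes tested). It was in 3 of 14 effectors and 3 of 15 feedback regulators. Of the 15 immediate early genes, 5 held the Egr motif (33.3%, against 13.2% of genes tested). The AP-1 motif TGANTCA was in 1 of them, the E-box CACGTG in 3 and the CArG box in 1. These are matches of letters, and the motif was not assayed here.

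Genes of cholesterol synthesis stood slightly higher with β4a. Of 20 tested, 15 were higher on average, with a median of 0.19 (0.22, 0.22 and 0.04 in replicates 1, 2 and 3), and 7 were higher in all 3 pairs (35%, against 10.2% of all genes tested). In replicate 1, 12 stood higher, 5 of them by at least 1, and 8 lower. In replicate 2, 17 stood higher, 0 of them by at least 1, and 3 lower. None passed after adjustment, and 6 of the 20 had an unadjusted p under 0.05 (30%, against 4.85% of all genes). Msmo1, a sterol demethylase, stood at 10.78, 10.42 and 10.22 with β4a and at 9.72, 10.19 and 10.04 with β4e. Its 3 β4a arrays lay above its 3 β4e arrays, by 0.49 on average (SE 0.17). Stard4, a carrier of cholesterol between membranes, stood at 10.45, 10.61 and 10.69 against 9.84, 10.10 and 10.65, and Sc5d, a desaturase late in the pathway, at 10.22, 10.02 and 10.02 against 9.16, 9.67 and 9.97. Both were higher in 3 of 3 pairs, and only Sc5d was without overlap. Cyp51 had the largest mean difference of the list (0.57), which fell to 0.09 without replicate 1. Sqle, the epoxidase that limits the late pathway, differed by 0.20, 0.61 and 0.48. Ebp and Tm7sf2, also enzymes of the late pathway, stood lower, by -0.21 and -0.19. Srebf2, the transcription factor of the pathway, differed by -0.04.

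By the smallest p with 1 sign in all 3 pairs, 12 genes were named in each direction, none of which passed (limma adjusted p = 0.759 for each). Insm1, a zinc finger factor of neuronal progenitors, led the lower side. It stood at 9.77, 5.89 and 7.48 with β4a and at 10.45, 6.62 and 8.25 with β4e, that is by -0.68, -0.74 and -0.77. The pairs thus differed alike, although the level moved by far more between replicate numbers than between the variants. The difference was -0.73 (SE 0.13), and leaving out arrays moved it from -0.81 to -0.68. Because Insm1 was chosen for its small p in the paired fit, like pairs and a narrow range come with that choice. A second, dimmer probe set of Insm1 did not have pairs that differed alike, at -1.68, -0.58 and -0.10, with both replicate 2 values below 4. Mcl1, a BCL2-family survival protein, led the higher side at 7.07, 6.28 and 6.31 against 5.84, 5.78 and 5.72, without overlap, with a difference of 0.77 (SE 0.14). This was its dimmest probe set, and its 5 further, brighter probe sets differed by 0.11 to 0.40. The brightest of them differed by 0.48, 0.009 and -0.0008 in replicates 1, 2 and 3. Nab1, a corepressor of the Egr factors, stood at 6.21, 5.61 and 5.40 against 4.52, 5.01 and 4.80, a difference of 0.96 (SE 0.20) with no overlap, and its 2 further probe sets differed by 0.48 and 0.50.

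Of the others higher with β4a, Hook3, a dynein adaptor, differed by 0.61, the adhesion molecule Alcam by 0.56, and Cdc73, a subunit of the PAF1 elongation complex, by 0.45. Eif4ebp2, a brake on cap-dependent translation, differed by 0.43, and Ppat, the first enzyme of purine synthesis, by 0.47. The exchange factor Fgd4 stood apart by 0.77, Mmgt1 by 0.69, Rmdn2 by 0.71, the palmitoyltransferase Zdhhc3 by 0.42 and the F-box protein Fbxo9 by 0.43. On the lower side, Nlgn3, a postsynaptic adhesion protein, stood at 8.13, 6.13 and 6.59 against 8.68, 6.54 and 6.97, a difference of -0.45 (SE 0.10). Its level was highest in replicate 1 of both groups, and its other probe sets differed by -0.16 and -0.05. The cap methyltransferase Cmtr1 differed by -0.47, Rcor1, the corepressor that works with REST, by -0.42, Wdr48, a partner of deubiquitinases, by -0.38, and Sri, the calcium-binding protein sorcin, by -0.87. Tmem161a, Fndc10, Pisd-ps3, Tmem191c, Tcn2 and Tsks differed by -0.36 to -0.72. Agreement between probe sets was partial. On the brightest probe set of the gene, Fbxo9 differed by 0.05, Alcam by 0.03, Fgd4 by 0.02 and Rcor1 by -0.05. That of Nab1 differed by 0.50. Of the 23 named genes with further probe sets, 8 had at least 1 of the other sign. These were Fgd4 (-0.28), Cdc73 (-0.20 and -0.11), Ppat (-0.09), Mmgt1 (-0.01), Sri (0.14), Wdr48 (0.14), Tcn2 (0.07) and Tmem161a (0.06).

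**Figure D4:**
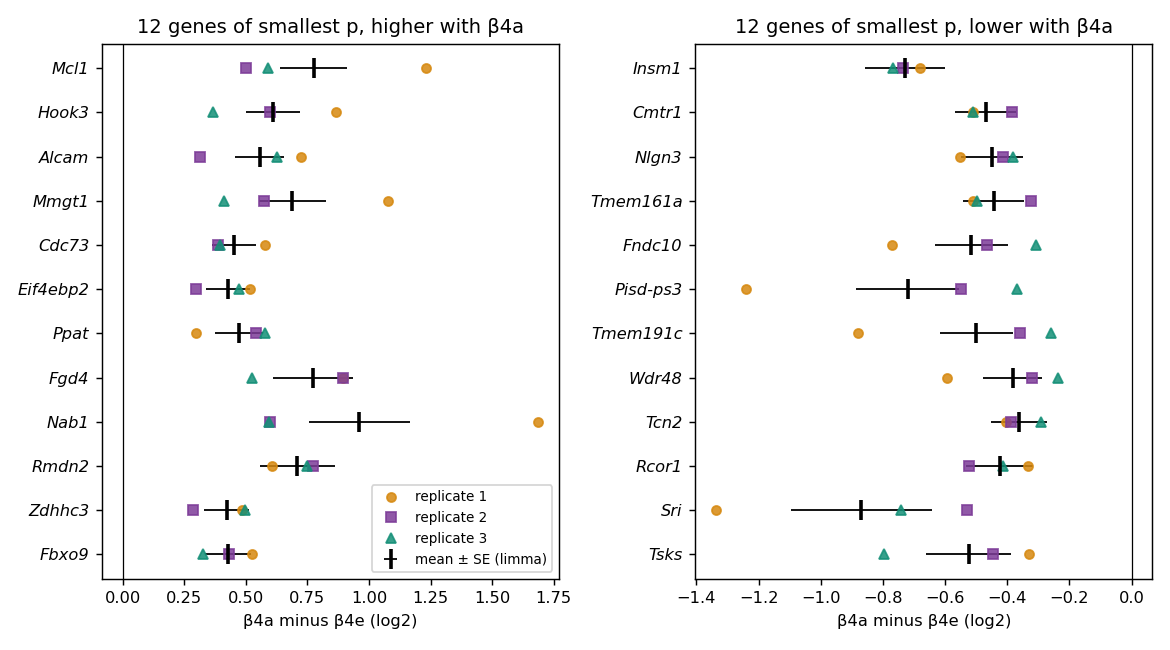
Difference between β4a and β4e (horizontal axis, log2) for the 12 genes of smallest p in each direction, with the value within each replicate number as a symbol and limma's mean ± SE as a black bar. Insm1 has its 3 pairs closest together on the lower side, from -0.77 to -0.68, and Nab1 has replicate 1 at 1.69 and the other pairs at 0.60.

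The lists of electrical and synaptic genes had medians near 0. Of 10 calcium channel subunits, 7 stood lower with β4a (median -0.10), and 1 had an unadjusted p under 0.05 (10%, against 4.85% of all genes). This was the T-type channel Cacna1g, at 5.11, 4.65 and 4.93 against 5.74, 4.85 and 5.13. Cacna1a, the P/Q-type channel that β4 pairs with most in cerebellum, differed by 0.06 (SE 0.13). Of 29 glutamate receptor and postsynaptic genes, 17 stood lower (median -0.08), among them Cacng2, the stargazin subunit that traffics AMPA receptors (-0.33), and the NMDA receptor subunit Grin3a (-0.44), both in 3 of 3 pairs. Of the 29, 4 had an unadjusted p under 0.05, all of them lower (13.8%, against 4.85% of all genes). In all 3 pairs, 8 of the 29 stood lower (27.6%, against 12.9% of all genes). Of 31 presynaptic genes 22 stood lower, with a median of only -0.04. Here 9 stood lower in all 3 pairs (29%) and 0 higher (against 10.2% of all genes), and 1 had an unadjusted p under 0.05 (3.23%). Such shares were not particular to synaptic lists. Lower in all 3 pairs were also 27.3% of sodium and HCN channels, 23.9% of chromatin and splicing factors and 22.2% of granule cell identity genes. Among cytosolic ribosomal proteins the share was 10%. Kcna2, a voltage-gated potassium channel of axons, had values of 10.39, 10.25 and 10.07 with β4a and at 10.86, 10.50 and 10.42 with β4e, all 3 β4a arrays below all 3 β4e arrays (-0.36, SE 0.11), as 1.2% of all probe sets did. Pvalb, a calcium buffer of interneurons, did so too, at 8.29, 8.49 and 8.95 against 9.23, 9.13 and 9.02. Slc17a6, a vesicular glutamate transporter, differed by -2.14 in replicate 1 and by -0.44 in replicate 3, while both of its replicate 2 values (2.32 and 2.58) were below 4.

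**Figure D5:**
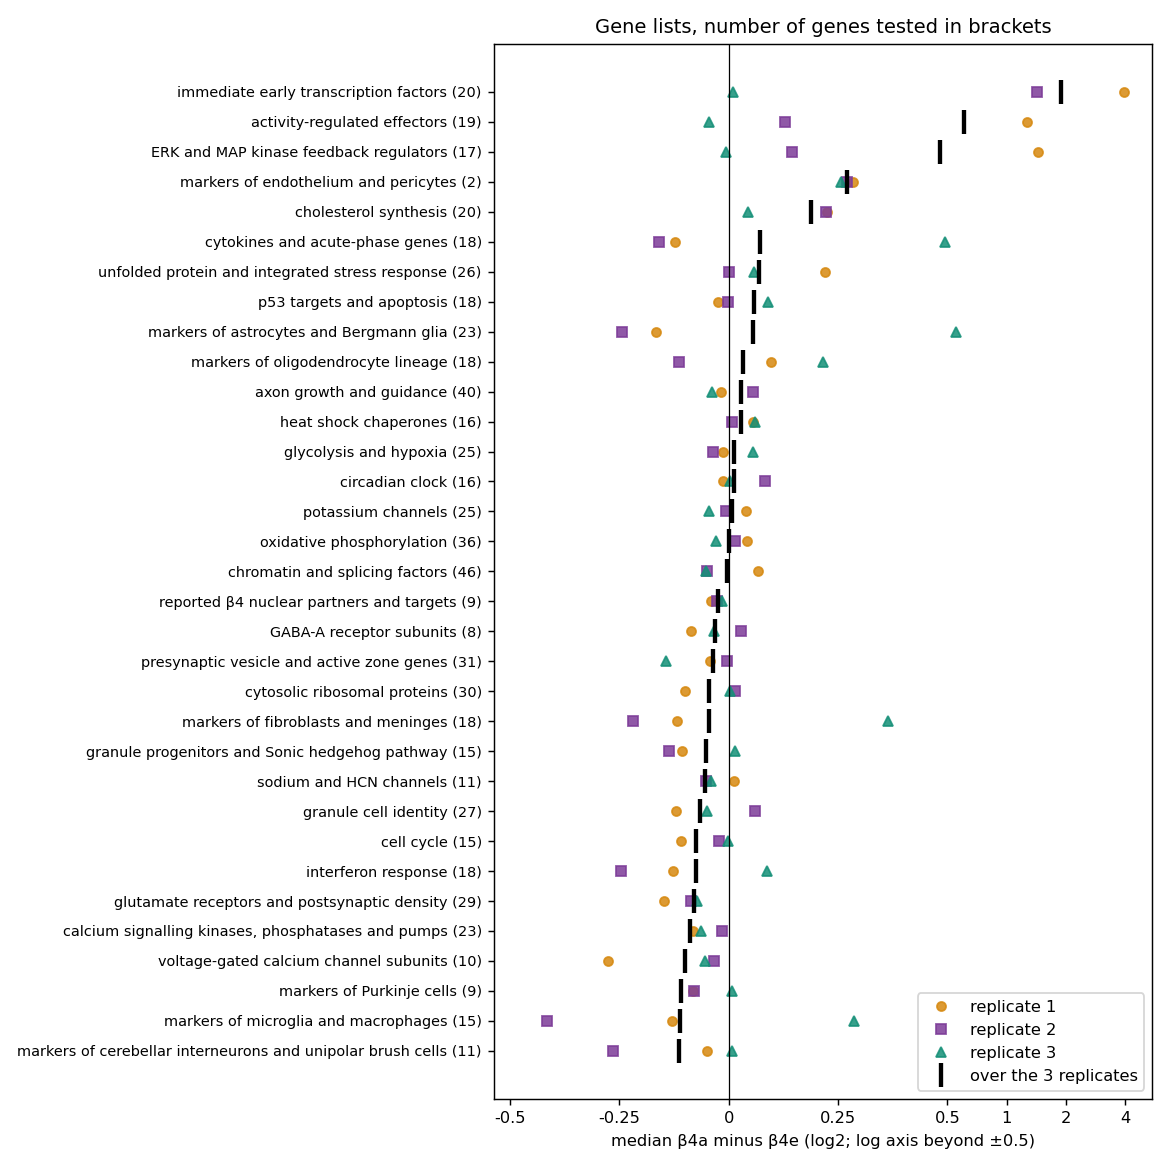
Median difference between β4a and β4e (horizontal axis, log2, logarithmic beyond 0.5) over the tested genes of each of 33 lists, with 1 symbol per replicate number and a black bar for the median of the means. The 3 activity lists stand at the top, and lists of glial, fibroblast and cytokine genes have replicate 3 on the right and replicates 1 and 2 on the left of 0, except oligodendrocyte genes, where only replicate 2 is on the left.

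Markers of non-neuronal cells differed in opposite directions between the pairs. Of 23 markers of astrocytes and Bergmann glia, 6 stood higher with β4a in replicate 1, 2 in replicate 2 and 22 in replicate 3, with medians of -0.17, -0.24 and 0.55. Slc1a3, the glial glutamate transporter, stood at 9.73, 9.82 and 11.19 with β4a and at 9.72, 10.36 and 10.06 with β4e, and Gfap, the astrocyte filament, at 10.78, 10.71 and 12.16 against 11.53, 11.22 and 11.18. In both, the β4a array of replicate 3 was the highest of the 6. The summed level of the list ranged from 15.47 to 16.10 with β4a and from 15.56 to 15.88 with β4e on the log2 scale, and Gfap, Aqp4 and Slc1a3 stood well above 4 in all 6 arrays. Microglial markers had medians of -0.13, -0.42 and 0.29 (0 of 15 higher in replicate 2, 12 of 15 in replicate 3), with summed levels of 13.29 to 14.29 against 13.54 to 14.05. Fibroblast markers had medians of -0.12, -0.22 and 0.36, and cytokine and acute-phase genes of -0.12, -0.16 and 0.49. The cytokine and acute-phase genes that differed most in replicate 3 were Saa3 (1.32), Tgfb2 (1.21) and Cxcl1 (1.09). In the pair where astrocyte and microglial markers mostly stood higher with β4a, the immediate early median was near 0, and in the pairs where the immediate early genes stood higher, the medians of both marker lists were below 0. Oligodendrocyte markers had medians of 0.10, -0.11 and 0.22. The part of cell composition in the activity genes was not tested.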

How the data were processed

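Gene expression was measured on 12 Affymetrix mouse 3′ arrays, 1 per sample, 3 in each of 4 groups, from 500 ng of RNA each. The authors summarised each probe set as a log2 intensity by GCRMA, per the submitters' processing notes (version not given), and these deposited values were used unaltered. Their number limits the precision. The 64 AFFX control probe sets among the 45101 were not tested. A probe set was tested above 4 in at least 3 of 12 arrays (23044, of which 19477 had 1 gene symbol in the platform annotation). Of all probe sets 34945 had 1 symbol, 932 several and 9160 none.

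All 12 arrays were fitted with limma 3.58.1 in R 4.3.3 (group plus replicate number as a fixed block, 6 residual degrees of freedom). Tests were two-sided, with Benjamini-Hochberg adjustment over all probe sets tested. The procedure was also run on simulated data with independent normal noise, in which genes do not move together as here. That run is a check of the code only. The replicate numbers come from the titles. That they pair the arrays was checked on deviations from group means: the 18 pairs of arrays with the same number correlated across probe sets at 0.699 to 0.884, and the 36 others at -0.741 to 0.146. Named genes are, per direction, up to 12 past the threshold or else those of smallest p, with 1 symbol and 1 sign in all 3 pairs, plus the leading 3 members of a list and Cacnb4. Members of lists quoted beyond these were chosen after their values were seen. Lists (33, 1 probe set per gene, the brightest, 10983 genes) have counts and medians only. The comparison, the lists and the rule were chosen with earlier results of these data known. Promoter windows are from RefSeq, GRCm38.p6. Alternatives were the block, the arrays fitted, the filter, quantile normalization, the variance model, array weights and leaving out arrays or replicate numbers.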

Additional observations from a re-analysis of the deposited data

How the results depend on the processing

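The numbers pair the arrays, and the fit with no replicate block gave 0 probe sets past the adjusted threshold and 153 at an unadjusted p under 0.05 (70.6% of them higher with β4a, against 56.9% with the block and 49.2% with the block after quantile normalization). That unadjusted count was 883 when only the 6 arrays of β4a and β4e were fitted with the replicate block and 2411 of 45037 probe sets without the filter. Leaving out 1 array or replicate number gave 718 (without β4e replicate 1) to 2085 (without β4a replicate 3), among them 850 without β4a replicate 1 and 881 without replicate 1. The count past the adjusted threshold by limma was 0 under each alternative except without β4a replicate 3, where it was 1 (Atf3, adjusted p = 0.0356), a range of 0 to 1 on leaving out arrays. Of 126 genes followed over 18 alternatives, 120 kept their direction. Most alternatives that keep all arrays leave the mean difference itself as it is, and the 24 genes of smallest p were chosen for 1 sign in all 3 pairs, so that their direction is no sign of stability. On leaving out arrays the sign turned for 6: Trem2 ran from -0.075 to 0.038 (positive without β4a replicate 1), Gad1 from -0.12 to 0.012 (positive without β4a replicate 2), Ttr from -1.96 to 0.55 (positive without β4e replicate 2 or replicate 2), Vgf from -0.30 to 2.70 (negative without β4a replicate 1 or replicate 1), Bdnf from -0.18 to 2.58 and Nr4a3 from -0.34 to 4.16 (both negative without replicate 1). The cause was not tested. On leaving out arrays, the median of the immediate early list ran from 0.72 to 2.68, that of the effectors from -0.02 to 0.72, that of the feedback regulators from 0.08 to 0.89 and that of cholesterol synthesis from 0.09 to 0.25. Median standard error was 0.13 with the block and 0.24 without, which limits what 3 arrays per group can show.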

Other observations

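Outside the activity lists, 9 genes stood at least 1 higher on average with β4a (34 in all, 25 of them in the lists) and 3 at least 1 lower, chosen here after their values were seen. Trib1, a pseudokinase that promotes protein degradation, stood at 7.71, 5.62 and 4.72 with β4a and 4.21, 5.08 and 4.41 with β4e. Atoh7, a neurogenic factor of the retina, stood at 10.38, 10.00 and 8.34 against 6.97, 8.46 and 8.48. Rnf122, a ubiquitin ligase, differed by 4.30 in replicate 1 and by 0.08 and 0.05 in the others. The clock gene Per2 and the small GTPase Rnd3 likewise differed mainly in replicate 1, by 2.95 and 2.99. On the lower side Cblb, a ubiquitin ligase that dampens receptor signalling, stood at 3.88, 6.37 and 8.53 against 7.68, 6.94 and 8.60, and the leak potassium channel Kcnk2 at 4.51, 3.10 and 3.86 against 7.13, 3.38 and 4.10. Ttr, the thyroid hormone carrier made by choroid plexus, stood at 12.61, 6.06 and 14.53 against 11.79, 10.27 and 14.25, so that its mean difference of -1.03 came from replicate 2.

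Each pair had its own leading genes. In replicate 1, 206 genes stood at least 1 higher with β4a and 195 at least 1 lower, in replicate 2 29 and 7, and in replicate 3 90 and 1. Rgcc, Txnip and Pik3ip1, a pathway brake on PI3 kinase, stood lower in replicate 1 by -2.90, -2.26 and -2.12. Replicate 3 was led by S1pr3, a sphingosine phosphate receptor (2.04), the AMPA receptor subunit Gria1 (1.82), ceruloplasmin (Cp, 1.80) and the oncostatin M receptor Osmr (1.73). The 1 gene at least 1 lower there was Vgf, a secreted activity-induced peptide precursor (-1.01), which was 4.99 higher in replicate 1. Across probe sets, the differences of replicates 1 and 2 correlated at 0.22, those of 1 and 3 at -0.07 and those of 2 and 3 at -0.09, as a description over probe sets, which are not independent.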
